A study of Mus musculus with 48 samples.

Results

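Matrix metalloproteinases (MMPs) and tissue inhibitors of metalloproteinases (TIMPs) were followed across cultured mouse kidney slices. The group held 10 named genes, Mmp2, Mmp3, Mmp7, Mmp9, Mmp10, Mmp13, Mmp14, Timp1, Timp2 and Timp3. They were found by matching the Ensembl IDs of the count table, which held 55487 genes, to these symbols. All 10 were present, each as a single row. The rule used gene names and no measured values, but the genes were listed with earlier results of these data known.

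RNA was sequenced from slices of kidney of male mice kept ex vivo. The inbred strains were C57BL/6J and DBA/2J, and no transgene or gene deletion is given for either. In each strain, slices were controls at 6 h or 24 h, or received tunicamycin (a blocker of protein N-glycosylation) or cyclosporin A (a calcineurin inhibitor) for 6 h or 24 h. A further pair of conditions was normoxia, labelled as an ischemia model, and a normoxia-hyperoxia sequence, labelled as a reperfusion model. The titles give both as 24 h. Each of the 16 groups held 3 libraries. The labels give no age, no dose, no oxygen level for controls and no time for the oxygen switch. Titles group the controls with the drug arms and name each oxygen condition separately, and library names number the 6 h, 24 h, normoxia and normoxia-hyperoxia libraries as separate sets. Whether sets were cultured or prepared together is not given, so set cannot be told apart from time or oxygen in comparisons between them. The labels call the replicates biological without saying whether slices shared a mouse, and p-values measure the spread between these libraries.

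MMPs are zinc-dependent endopeptidases that cut collagens, laminins, proteoglycans and many other proteins outside the cell. Most are secreted as inactive precursors, and plasmin, other MMPs and loss of the propeptide switch them on. TIMPs bind the active site and block it. In the kidney, MMPs and TIMPs are known for their part in basement membrane turnover, tubular injury and fibrosis, and several MMP genes are textbook targets of AP-1, the Fos and Jun transcription factors.

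Positions are those of GENCODE M21 on GRCm38. Mmp13 (chr9:7272514-7283331), Mmp3 (chr9:7445822-7455975), Mmp10 (chr9:7502352-7510240) and Mmp7 (chr9:7692090-7699585) lie on the plus strand within a cluster of 10 Mmp genes that spans 427 kb. The other members lie apart, Mmp2 at chr8:92827291-92853420, Mmp9 at chr2:164940780-164955850, Mmp14 at chr14:54431612-54445364, Timp1 at chrX:20870166-20874735, Timp2 at chr11:118301069-118355740 and Timp3 at chr10:86300372-86349506. Timp2 is on the minus strand and the others are on the plus strand. The RefSeq promoter table for GRCm38.p6 matched 8 of the 10 members, leaving Mmp2 and Mmp9 without an entry. The 100 bases before the annotated start are shown for the 4 clustered genes, because all 4 held the AP-1 type motif TGANTCA in their first promoter. Mmp14 and Timp1 are shown too, chosen because they moved with Mmp3 in these data, and hold no such match. No other form of AP-1 site was searched, and the part of the motif in the shared pattern was not tested. Sequences run 5′ to 3′ on the gene's strand, which is the plus strand, and capitals mark TGANTCA.
Mmp13: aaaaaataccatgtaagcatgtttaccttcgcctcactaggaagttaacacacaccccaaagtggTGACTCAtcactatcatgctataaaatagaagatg
Mmp3: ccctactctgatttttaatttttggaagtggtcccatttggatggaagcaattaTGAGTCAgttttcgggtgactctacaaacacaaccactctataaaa
Mmp10: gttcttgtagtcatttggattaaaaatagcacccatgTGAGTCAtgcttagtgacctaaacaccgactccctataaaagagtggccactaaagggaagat
Mmp7: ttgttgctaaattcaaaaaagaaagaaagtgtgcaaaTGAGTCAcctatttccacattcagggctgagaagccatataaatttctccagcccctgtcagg
Mmp14: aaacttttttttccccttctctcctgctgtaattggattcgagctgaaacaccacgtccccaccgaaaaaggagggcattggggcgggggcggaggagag
Timp1: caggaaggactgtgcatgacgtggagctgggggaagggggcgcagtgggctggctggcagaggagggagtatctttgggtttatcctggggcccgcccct

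These stretches are chr9:7272414-7272513 for Mmp13, chr9:7445722-7445821 for Mmp3, chr9:7502242-7502341 for Mmp10, chr9:7691990-7692089 for Mmp7, chr14:54431498-54431597 for Mmp14 and chrX:20870066-20870165 for Timp1. Counting the base before the start as -1, the motif begins at -35 in Mmp13, -46 in Mmp3, -63 in Mmp10 and -63 in Mmp7. Both strands were searched in the window from 250 bases before to 50 after the start, and TGANTCA reads the same on either strand. The motif was in 2565 of 32851 promoters of that length (7.81%). Mmp14, Timp1, Timp2 and Timp3 had no match in their windows, nor had a second Mmp7 promoter in the table. A match describes letters in a window and is not a measured binding site.

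Library totals ran from 5619309 to 25137581 counts, with a second lowest of 12384733. The lowest belonged to DBA/2J normoxia-hyperoxia replicate 2. Levels are given as CPM, counts scaled to a common library total, and groups as mean ± SD with n = 3. Markers of kidney cells were present throughout, with summed levels of 117 to 12598 CPM for 5 proximal tubule markers and 120 to 405 CPM for 6 macrophage markers. A sum of 6 neutrophil markers did not pass 5.97 CPM, and in each of the 16 groups at least 1 of them had no count in any library. Of 7 fibroblast and pericyte markers, 3 libraries held summed levels of 628, 559 and 441 CPM, against a median of 186 and a maximum of 382 CPM in the other 45. These libraries were DBA/2J tunicamycin 24 h replicate 1, DBA/2J control 6 h replicate 1 and DBA/2J cyclosporin A 24 h replicate 3, in that order, and the member results that use them are given with and without them. In bulk RNA, fewer cells of a type and less RNA per cell cannot be told apart.

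Neighbouring or similar genes left little room for shared reads. Mmp3 and Mmp10 share 140 stretches of 50 bases, of 1752 in Mmp3 and 1673 in Mmp10, and no other member shared one with another MMP or TIMP. Exons of Timp3 share 1733 bases with Syn3 on the opposite strand, but Timp3 held at least 135 times the Syn3 level in every library. The strand setting of the counting is not given in the sources used here.

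Compared per kilobase of exon, the scale on which genes can be set side by side, Timp3 was the most abundant member in every group. Timp3 codes for an inhibitor that stays bound to the matrix. It made up between 52.9% (DBA/2J cyclosporin A 24 h) and 96.8% (DBA/2J normoxia) of the summed level of the 10 members (59.6% for the former without replicate 3). In C57BL/6J controls at 6 h Timp3 stood at 228 ± 8.78 CPM per kb, followed by Timp2 at 20.5 ± 2.80 and Mmp13 at 3.80 ± 1.29. Mmp14 at 3.65 ± 0.380 and Timp1 at 2.88 ± 1.30 CPM per kb came next, and these lay within their spread of Mmp13. At 24 h the order was Timp3 (132 ± 4.98), Timp1 (18.4 ± 2.35), Timp2 (15.3 ± 0.865), Mmp14 (9.58 ± 0.631) and Mmp3 (8.40 ± 1.51 CPM per kb), so that Timp1 and Mmp3 had moved up. The summed level of the 7 MMPs per kb was 10.6 CPM at 6 h and 26.9 CPM at 24 h in C57BL/6J controls, and 16.3 and 35.6 CPM in DBA/2J controls (11.7 CPM at 6 h without replicate 1). Under normoxia it was 5.96 CPM in C57BL/6J slices and 4.82 CPM in DBA/2J slices, the lowest MMP sums of the 16 groups.

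**Figure D1:**
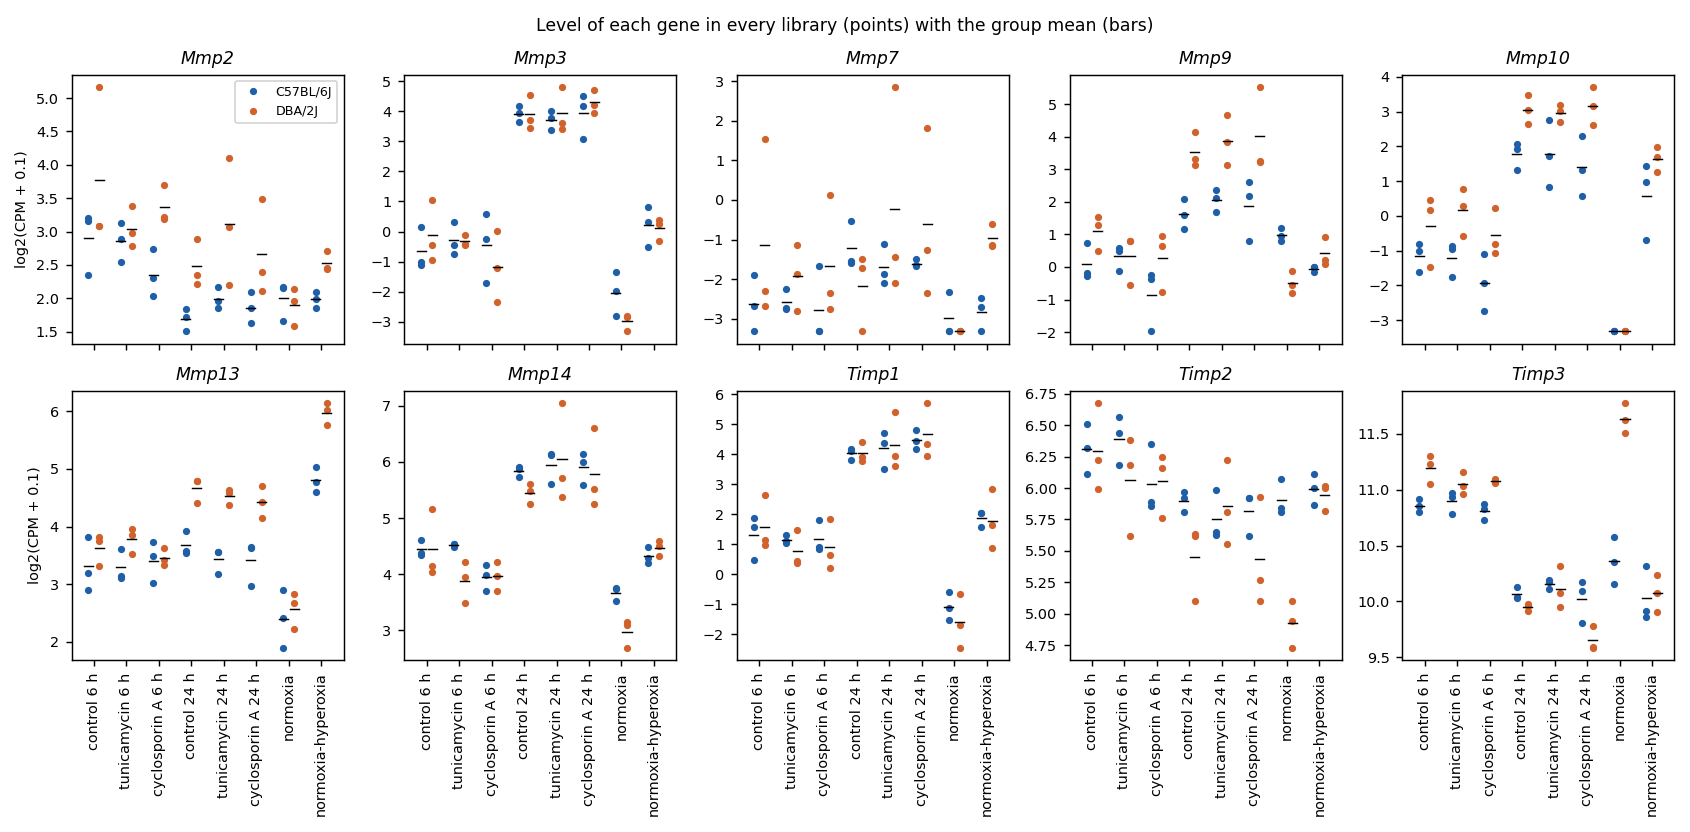
Level of each of the 10 genes as log2(CPM + 0.1) on the vertical axis for the 8 conditions, with C57BL/6J libraries in blue, DBA/2J libraries in orange and bars at the mean of the log values. Mmp3 is at 8.44 CPM or more in every 24 h control and drug library and at 0.297 CPM or less under normoxia, where Mmp10 has 0 counts throughout.

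The first comparison asked how the genes moved with time in control slices, from 6 h to 24 h. The stromelysins Mmp3 and Mmp10 and the inhibitor Timp1 rose most, and the gelatinase Mmp2 and the inhibitors Timp2 and Timp3 fell. A gene was called changed at an adjusted p under 0.05 in edgeR's quasi-likelihood test, averaged over both strains. Of the 9 members that passed the filter on low counts, 9 were called, 6 higher and 3 lower, where 72% of all genes tested were called, 34.7% higher and 37.4% lower. Mmp7 did not pass this filter in any comparison. The median log2 fold change was 0.94 over the tested members and -0.02 over all genes.

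Mmp3, stromelysin 1, cleaves proteoglycans and laminin and activates other MMPs. In C57BL/6J controls it measured 0.391, 1.01 and 0.362 CPM at 6 h and 17.8, 12.3 and 15.3 CPM at 24 h. In DBA/2J controls it measured 1.96, 0.414 and 0.629 CPM at 6 h and 10.7, 23.3 and 12.99 CPM at 24 h. All 24 h libraries lay above all 6 h libraries in both strains, giving a log2 fold change of 4.08 ± 0.35 (± gives the SE here and for all fold changes; edgeR adjusted p = 5.67e-07). Mmp10, stromelysin 2, has similar substrates and lies near Mmp3 in the cluster. It went from 0.224, 0.395 and 0.466 CPM to 2.39, 4.08 and 3.71 CPM in C57BL/6J slices. In DBA/2J slices Mmp10 went from 1.28, 0.259 and 1.03 CPM to 10.9, 6.14 and 8.19 CPM. The times did not overlap in either strain, with a log2 fold change of 3.03 ± 0.31 (edgeR adjusted p = 5.65e-07).

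Timp1, a secreted inhibitor that is induced in many injured tissues, measured 1.29, 3.55 and 2.84 CPM at 6 h and 13.99, 17.99 and 17.04 CPM at 24 h in C57BL/6J controls. In DBA/2J controls it measured 6.07, 1.86 and 2.12 CPM at 6 h and 15.04, 21.3 and 13.4 CPM at 24 h. Times did not overlap, and Timp1 rose by 2.26 ± 0.29 on the log2 scale (edgeR adjusted p = 2.37e-05). Mmp9, gelatinase B, cuts denatured collagen and the type IV collagen of basement membranes. It rose from 1.03 ± 0.468 to 3.07 ± 1.03 CPM in C57BL/6J slices and from 2.14 ± 0.753 to 12.1 ± 4.83 CPM in DBA/2J slices, a log2 fold change of 1.82 ± 0.27 (edgeR adjusted p = 3.12e-05). Mmp14, the membrane-bound enzyme that activates pro-Mmp2 at the cell surface, rose from 21.8 ± 2.27 to 57.1 ± 3.76 CPM in C57BL/6J slices. In DBA/2J slices Mmp14 measured 35.6, 17.6 and 16.2 CPM at 6 h and 44.3, 48.8 and 37.9 CPM at 24 h. The 24 h values were higher throughout, and the log2 fold change over both strains was 0.94 ± 0.17 (edgeR adjusted p = 0.000281).

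Mmp13, the main interstitial collagenase of the mouse, rose less, by a log2 fold change of 0.48 ± 0.16 (edgeR adjusted p = 0.0151). Its C57BL/6J values were 7.38, 14.03 and 9.05 CPM at 6 h and 11.8, 15.1 and 11.5 CPM at 24 h, which overlapped. Its DBA/2J values were 9.82, 14.03 and 13.4 CPM and then 27.7, 27.4 and 21.1 CPM, which did not. Mmp13 passed the test in DBA/2J (0.88 ± 0.22, edgeR adjusted p = 0.00333) and not in C57BL/6J slices (0.07 ± 0.23, edgeR adjusted p = 0.811). The difference between these effects did not pass (0.82 ± 0.32, edgeR adjusted p = 0.285).

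Mmp2, gelatinase A, is made chiefly by fibroblasts and other stromal cells. It measured 9.12, 5.02 and 8.84 CPM at 6 h and 2.74, 3.20 and 3.47 CPM at 24 h in C57BL/6J controls. DBA/2J controls measured 35.9, 8.38 and 8.35 CPM at 6 h and 4.53, 5.02 and 7.31 CPM at 24 h. The times did not overlap, and Mmp2 fell by 1.69 on the log2 scale (SE 0.38, edgeR adjusted p = 0.00182). The 35.9 CPM belonged to the DBA/2J library with high fibroblast and pericyte markers. Without that library the fall of Mmp2 was smaller, at -1.16 ± 0.17 over both strains (edgeR adjusted p = 4.05e-05) and -0.75 ± 0.25 against -1.82 ± 0.52 in DBA/2J slices. Of the 7 fibroblast and pericyte markers, 5 fell and 2 did not pass in the same comparison, and their part in the fall of Mmp2 was not tested.

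Timp2 blocks MMPs and also takes part in the activation of pro-Mmp2 by Mmp14. It fell from 79.99 ± 10.9 to 59.7 ± 3.37 CPM in C57BL/6J slices and from 80.2 ± 19.9 to 44.3 ± 8.69 CPM in DBA/2J slices, a log2 fold change of -0.85 ± 0.12 (edgeR adjusted p = 2.40e-05). Timp3 fell from 1786, 1849 and 1929 CPM to 1053, 1120 and 1047 CPM in C57BL/6J slices. In DBA/2J slices Timp3 fell from 2126, 2401 and 2523 CPM to 966, 996 and 1008 CPM. No library of either time overlapped the other, and the log2 fold change of Timp3 was -1.23 ± 0.07 (edgeR adjusted p = 1.43e-09). The 5 proximal tubule markers all fell too, with a median log2 fold change of -2.67, as did all 4 markers of the thick ascending limb and collecting duct (median -1.60), and their part in these falls was not tested.

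All 9 of these calls held without DBA/2J control 6 h replicate 1. The log2 fold changes were then 4.57 for Mmp3, 3.24 for Mmp10, 2.64 for Timp1, 1.94 for Mmp9, 1.16 for Mmp14 and 0.40 for Mmp13. Timp2 stood at -0.75 and Timp3 at -1.27, and Mmp13 in DBA/2J slices at 0.73 (edgeR adjusted p = 0.0179). Scaling by library totals alone, in place of edgeR's TMM factors, moved the median of all genes by 0.21 on the log2 scale and turned no member. The split of all called genes moved from 5883 higher and 6338 lower to 7580 higher and 4969 lower. A strain difference in the change over time was called for 0 of 9 members and for 0.69% of all genes. For members, 2 reached an unadjusted p under 0.05 in edgeR, and DESeq2 also called 0, but without the filter on low counts 2 were called.

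**Figure D2:**
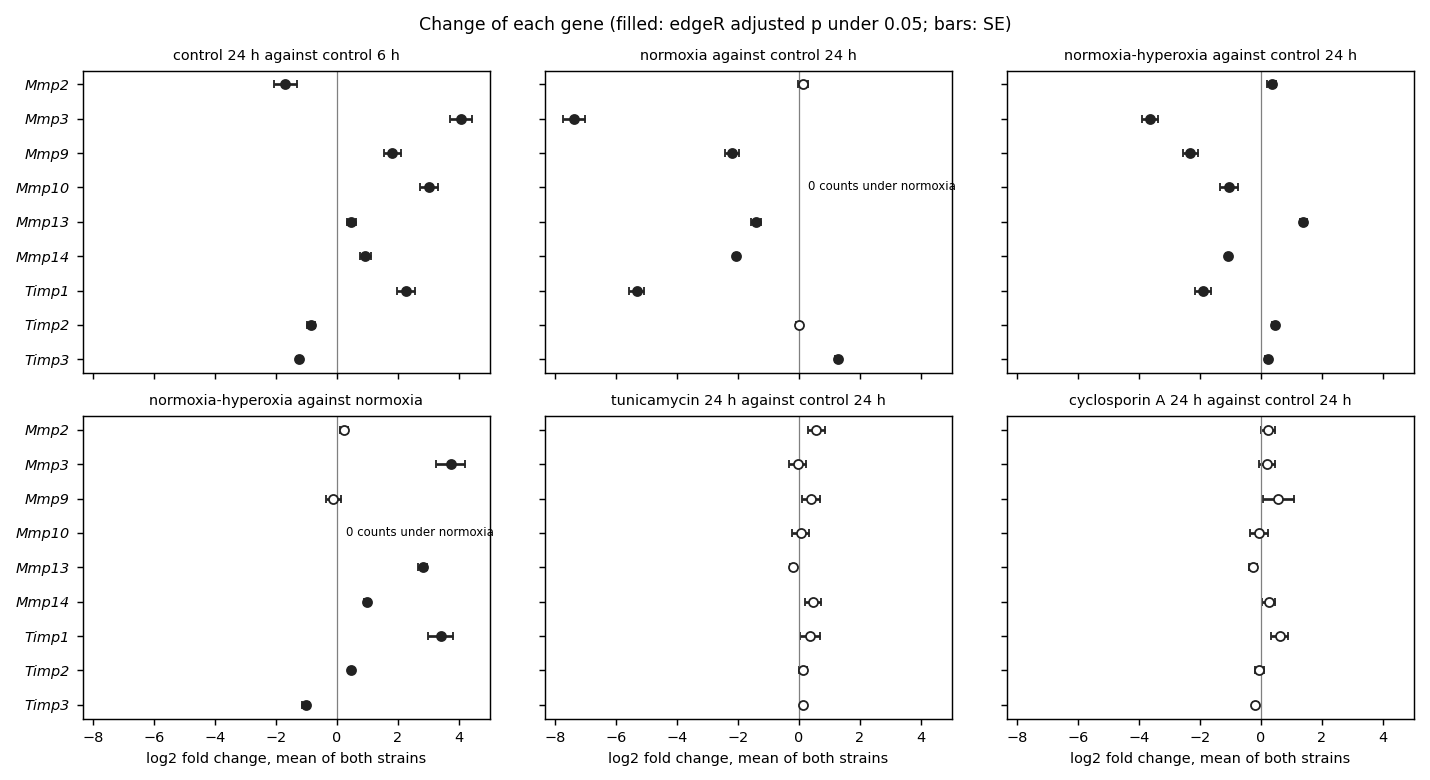
Log2 fold change of 9 genes, averaged over both strains, in 6 comparisons, with bars for the SE and filled points for an edgeR adjusted p under 0.05. Mmp3 and Timp1 lie at 4.08 and 2.26 for 24 h against 6 h and at -7.38 and -5.32 for normoxia against 24 h controls, and no point is filled for either drug at 24 h.

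Normoxia was compared with the 24 h controls, which also serve the comparison of times. Called members numbered 7 of 9, 1 higher (Timp3) and 6 lower (Mmp3, Mmp9, Mmp10, Mmp13, Mmp14 and Timp1), where 82% of all genes were called, 42.4% higher and 39.7% lower. The median log2 fold change was -2.06 over the members tested and 0.05 over all genes.

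Mmp10 had 0 counts in all 6 normoxia libraries, where a count of 0 allows up to 3 counts per library. Against that floor it lay below its 24 h level by at least 23.5-fold (C57BL/6J) and 62.3-fold (DBA/2J) (edgeR adjusted p = 3.71e-09 over both strains). Mmp3 measured 0.0437, 0.297 and 0.153 CPM in C57BL/6J slices under normoxia. In DBA/2J slices only 2 Mmp3 counts were found over 3 libraries, 537-fold below the 24 h controls with an exact 95% counting interval of 148 to 4442. This interval covers counting error alone. Both genes lay below every control library, and Mmp3 had a log2 fold change of -7.38 ± 0.37 over both strains (edgeR adjusted p = 2.48e-10).

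Timp1 measured 0.569, 0.248 and 0.357 CPM in C57BL/6J slices and 0.532, 0.208 and 0.0841 CPM in DBA/2J normoxia libraries, a log2 fold change of -5.32 ± 0.25 (edgeR adjusted p = 2.77e-11). It was lower than in any control library of either time. Mmp14 fell to 12.6 ± 1.10 CPM in C57BL/6J slices and 7.84 ± 1.30 CPM in DBA/2J slices, by 2.06 on the log2 scale (SE 0.09, edgeR adjusted p = 3.11e-12). Mmp13 fell to 5.39 ± 1.86 and 5.95 ± 1.28 CPM in the respective strains, by 1.41 on the log2 scale (SE 0.16, edgeR adjusted p = 8.48e-07). Both collagen-cutting enzymes were below all 24 h control libraries of their strain. Of the markers, 2 of 7 for fibroblasts and pericytes and 2 of 4 for endothelium were lower, with 0 and 1 higher, and 4 of 6 for macrophages were higher and 1 lower. Their part in these falls was not tested.

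Mmp2 and Timp2 did not pass over both strains, at 0.14 ± 0.16 and 0.01 ± 0.09 (edgeR adjusted p = 0.42 and 0.944). The sign of both turned when libraries were scaled by their totals, to -0.13 for Mmp2 and -0.27 for Timp2, and Timp2 was then called (edgeR adjusted p = 0.0176). Under that scaling the median of all genes moved by -0.27, and the split of called genes went from 7359 higher and 6891 lower to 5935 higher and 8360 lower. The 7 other calls kept their direction.

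Timp3 alone of the members rose. It measured 1525, 1141 and 1310 CPM under normoxia in C57BL/6J slices and 2909, 3165 and 3510 CPM in DBA/2J slices, all above the 24 h controls of the strain. The log2 fold change was 0.52 ± 0.11 in C57BL/6J slices and 2.02 ± 0.11 in DBA/2J slices (edgeR adjusted p = 0.000417 and 2.31e-10). The difference between the strains' responses was 1.496 ± 0.15 (edgeR adjusted p = 3.55e-05). Summed proximal tubule markers stood at 5631 ± 1369.8 CPM in C57BL/6J slices and 11624 ± 851 CPM in DBA/2J normoxia libraries, against 461 ± 111 and 1354 ± 500 CPM in the 24 h controls. All 4 markers of the thick ascending limb and collecting duct were higher too (median log2 fold change 1.56). Their part in the Timp3 response was not tested.

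Mmp9 had the second called strain difference. It measured 2.14, 4.17 and 2.91 CPM at 24 h and 2.19, 1.63 and 1.84 CPM under normoxia in C57BL/6J slices, which overlapped. DBA/2J slices went from 9.89, 17.6 and 8.73 CPM to 0.819, 0.469 and 0.589 CPM, with no overlap. The log2 fold change of Mmp9 was -0.49 ± 0.32 in C57BL/6J (edgeR adjusted p = 0.178) and -3.91 ± 0.35 in DBA/2J slices (edgeR adjusted p = 6.22e-08). The responses differed by -3.42 ± 0.48 (edgeR adjusted p = 0.000376). These 2 members of 9 compare with 17% of all genes called for a strain difference in this response, 10.1% in the direction of Timp3 and 6.88% in that of Mmp9, and the count was 4 without DBA/2J control 24 h replicate 1 and 4 without the filter on low counts.

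Against the 6 h controls, 6 of the 8 members tested were lower under normoxia and none higher, where 32.9% of all genes were lower (65.8% called in all). These were Timp1 (-3.10 ± 0.45), Mmp3 (-3.32 ± 0.62), Mmp2 (-1.59 ± 0.39), Mmp14 (-1.16 ± 0.17), Mmp13 (-0.98 ± 0.20) and Timp2 (-0.89 ± 0.11), with edgeR adjusted p of 0.00408 or less. All 7 fibroblast and pericyte markers were lower too (median log2 fold change -1.48), as were all 4 endothelial markers (median -0.87), and their part in these falls was not tested. Without DBA/2J control 6 h replicate 1 the same 6 were called, with Mmp2 at -1.03 ± 0.16, Timp1 at -2.70, Mmp3 at -2.82, Mmp14 at -0.91, Mmp13 at -1.02 and Timp2 at -0.76. Mmp10, with 0 counts under normoxia, was filtered out here, and lay below its 6 h level by at least 2.50-fold (C57BL/6J) and 6.33-fold (DBA/2J; 4.77-fold without that library). Timp3 went opposite ways, at -0.56 ± 0.13 in C57BL/6J slices and 0.55 ± 0.13 in DBA/2J slices (edgeR adjusted p = 0.00237 and 0.00251). Its strain difference was 1.11 ± 0.19 (edgeR adjusted p = 0.00606).

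Strain differences were also called for Mmp9 (-2.46 ± 0.51, edgeR adjusted p = 0.0176) and Timp2 (-0.80 ± 0.21, edgeR adjusted p = 0.0491), which makes 3 of 8 members against 3.66% of all genes (5 members without the filter on low counts). Without DBA/2J normoxia replicate 2 the count was 1, and Mmp9 had an edgeR adjusted p of 0.0528. Timp2 lost its call in 10 of the 12 fits that left a library out, with an edgeR adjusted p of up to 0.13, and with the replicate block (-0.79, edgeR adjusted p = 0.0627). Without DBA/2J control 6 h replicate 1 there were 2 calls, Timp3 (1.01, edgeR adjusted p = 0.0237) and Mmp9 (-2.25, edgeR adjusted p = 0.0492), and Timp3 rose by 0.49 in DBA/2J slices (edgeR adjusted p = 0.0124). The comparisons of normoxia with the controls of either time share the normoxia libraries.

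Normoxia-hyperoxia was compared with normoxia alone, the same pair of strains under either oxygen sequence. Called members numbered 7 of 9, where 73.5% of all genes were called. Mmp3, Mmp10, Mmp13, Mmp14, Timp1 and Timp2 were higher and Timp3 was lower, against 37% of all genes higher and 36.5% lower. The median log2 fold change was 0.99 over the members and 0.02 over all genes.

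Mmp13 reached its highest levels of the study under normoxia-hyperoxia. It measured 24.0, 27.3 and 32.7 CPM in C57BL/6J slices and 70.8, 54.5 and 65.0 CPM in DBA/2J slices, above every other library of the same strain. The log2 fold change was 2.82 ± 0.15 (edgeR adjusted p = 1.78e-09). The summed macrophage markers were 206 ± 24.3 CPM in C57BL/6J slices and 353 ± 47.3 CPM in DBA/2J normoxia-hyperoxia libraries, against 183 ± 11.2 and 138 ± 13.5 CPM under normoxia. Of the 6 macrophage markers, 5 rose and 1 did not pass, and their part in the Mmp13 change was not tested.

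Mmp10 went from 0 counts to 2.61, 0.517 and 1.86 CPM in C57BL/6J slices and 3.16, 2.31 and 3.81 CPM in DBA/2J slices. These levels were at least 11.5-fold and at least 22.9-fold higher (edgeR adjusted p = 3.56e-06 over both strains). Mmp3 rose to 1.14 ± 0.527 and 1.00 ± 0.258 CPM in the respective strains, by a log2 fold change of 3.74 ± 0.47 (edgeR adjusted p = 3.40e-06). Both stromelysins left their normoxia range entirely, yet Mmp3 stayed below all 24 h controls.

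Timp1 measured 2.88, 3.98 and 4.03 CPM in C57BL/6J slices and 1.72, 3.03 and 7.07 CPM in DBA/2J slices, and rose by 3.41 ± 0.42 (edgeR adjusted p = 5.02e-06). Every normoxia-hyperoxia library was above every normoxia library. Timp3 fell by 1.03 on the log2 scale (SE 0.11, edgeR adjusted p = 4.37e-07). In DBA/2J slices Timp3 went from 3195 ± 302 to 1084 ± 123 CPM (-1.73 ± 0.16, edgeR adjusted p = 1.26e-07). In C57BL/6J slices it went from 1325 ± 192 to 1058 ± 191 CPM with overlap, and did not pass (-0.33 ± 0.15, edgeR adjusted p = 0.0745). All 5 proximal tubule markers fell as well, their sum going from 5631 ± 1369.8 to 145 ± 27.5 CPM in C57BL/6J slices and from 11624 ± 851 to 624 ± 129 CPM in DBA/2J slices, and their part in the Timp3 change was not tested. The C57BL/6J change of Timp3 passed without the filter on low counts (edgeR adjusted p = 0.0129) and in DESeq2 (adjusted p = 0.0479), and in some fits without a library (lowest edgeR adjusted p 0.00768).

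The response differed between the strains for 4 of 9 members, where 18.2% of all genes were called. For Timp3 the difference was -1.40 ± 0.22 (edgeR adjusted p = 0.000714). Timp2 went from 60.1 ± 6.08 to 63.7 ± 5.38 CPM in C57BL/6J slices and from 30.4 ± 3.86 to 61.7 ± 4.57 CPM in DBA/2J slices, a difference of 0.76 ± 0.14 (edgeR adjusted p = 0.00241). Only the DBA/2J groups of Timp2 were separate. Mmp14 rose in both strains, by 0.65 ± 0.12 in C57BL/6J slices and 1.33 ± 0.13 in DBA/2J slices, a difference of 0.68 ± 0.18 (edgeR adjusted p = 0.0166). Of the 7 fibroblast and pericyte markers 4 rose and 0 fell, with sums going from 177 ± 25.4 to 227 ± 26.96 CPM in C57BL/6J slices and from 81.5 ± 21.2 to 159 ± 35.7 CPM in DBA/2J slices. All 4 endothelial markers rose, from a sum of 586 ± 102.7 to 1018 ± 165 CPM in C57BL/6J slices and from 348 ± 87.3 to 1071 ± 189 CPM in DBA/2J slices. Both marker sums went up in the same direction as Timp2 and Mmp14, and their part in those changes was not tested.

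Mmp9 moved in opposite directions. Its log2 fold change was -1.12 ± 0.32 in C57BL/6J slices (edgeR adjusted p = 0.00589), with levels of 2.19, 1.63 and 1.84 CPM and then 0.905, 0.796 and 0.907 CPM. It was 0.89 ± 0.35 in DBA/2J slices (edgeR adjusted p = 0.0327), from 0.819, 0.469 and 0.589 CPM to 0.976, 1.07 and 1.81 CPM. The groups did not overlap in either strain, and the difference was 2.02 ± 0.47 (edgeR adjusted p = 0.00886). The DBA/2J rise of Mmp9 lost its call without DBA/2J normoxia-hyperoxia replicate 3 (0.50, edgeR adjusted p = 0.285), and without DBA/2J normoxia replicate 2 or 3. It also lost it under DESeq2 (adjusted p = 0.0598), without the filter on low counts (adjusted p = 0.0641) and with the replicate block (adjusted p = 0.0699).

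**Figure D3:**
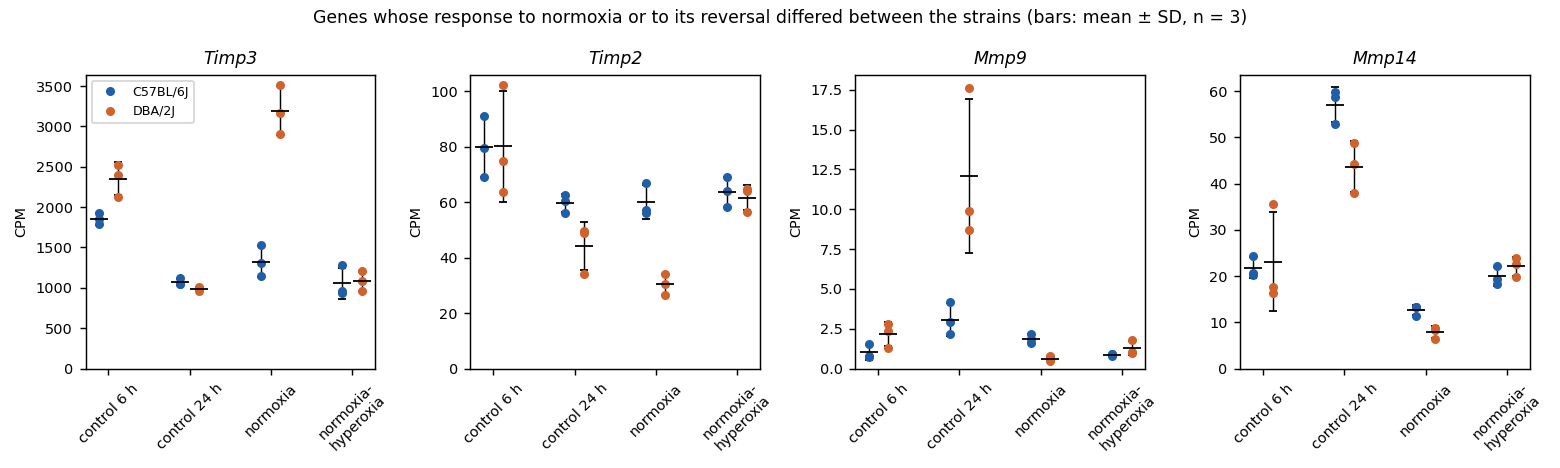
CPM of Timp3, Timp2, Mmp9 and Mmp14 in control and oxygen groups, with C57BL/6J in blue, DBA/2J in orange, points for libraries and bars for the mean ± SD (n = 3). Timp3 in DBA/2J slices stands at 3195 ± 302 CPM under normoxia, above the C57BL/6J slices at 1325 ± 192 CPM, and near 1084 and 1058 CPM in the 2 strains under normoxia-hyperoxia.

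Normoxia-hyperoxia set against the 24 h controls called 9 of 9 members, where 68.2% of all genes were called. Mmp3 (-3.64 ± 0.26), Mmp9 (-2.33 ± 0.25), Timp1 (-1.91 ± 0.26), Mmp14 (-1.08 ± 0.08) and Mmp10 (-1.05 ± 0.30) were lower, against 34.1% of all genes. Mmp13 (1.39 ± 0.11), Timp2 (0.45 ± 0.09), Mmp2 (0.35 ± 0.15) and Timp3 (0.22 ± 0.09) were higher, against 34.1% of all genes. Of 6 macrophage markers 5 were higher and 1 lower, and of 7 fibroblast and pericyte markers 3 were higher and 1 lower. All 5 proximal tubule markers were lower (median log2 fold change -1.28) and all 4 of the thick ascending limb and collecting duct higher (median 2.09). The part of these markers was not tested. The rise of Timp3 was small and did not hold with scaling by library totals (0.06, edgeR adjusted p = 0.577). Mmp13 was thus the member above the 24 h control level after hyperoxia that had been below it under normoxia alone, although both comparisons share those controls.

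The smaller rises were fragile. Scaled by library totals, Mmp2 stood at 0.18 (edgeR adjusted p = 0.297) and Timp3 at 0.06 (edgeR adjusted p = 0.577), while the median of all genes moved by -0.17 and the split from 5881 higher and 5891 lower to 4699 higher and 7347 lower. Mmp2 lost its call in 10 of the 12 fits without a library (edgeR adjusted p of up to 0.126), without the filter (edgeR adjusted p = 0.0892) and in DESeq2 (adjusted p = 0.0533). Timp3 lost it in 7 of 12 fits without a library (edgeR adjusted p of up to 0.0906). The strain difference in this response was called for 0 of 9 members and 1.43% of all genes, with 2 members at an unadjusted p under 0.05 in edgeR and 0 called by DESeq2. Without the filter on low counts 2 members were called.

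Set against the 6 h controls, normoxia-hyperoxia called 5 of 9 members, where 44.9% of all genes were called. Mmp10 (1.99 ± 0.42) and Mmp13 (1.89 ± 0.16) were higher, against 22.4% of all genes, and Mmp2 (-1.31 ± 0.36), Timp3 (-0.99 ± 0.10) and Timp2 (-0.38 ± 0.10) were lower, against 22.5% (edgeR adjusted p of 0.0121 or less). Of the markers, 4 of 7 for fibroblasts and pericytes and 5 of 5 for proximal tubule were lower and 6 of 6 for macrophages higher, and their part was not tested. Mmp3, Mmp9, Mmp14 and Timp1 lay between -0.49 and 0.46 and did not pass. The same 5 calls were made without DBA/2J control 6 h replicate 1, with Mmp2 at -0.78 ± 0.15, Mmp10 at 2.201, Mmp13 at 1.81, Timp3 at -1.03 and Timp2 at -0.28. Mmp3 (0.94), Timp1 (0.74), Mmp14 (0.0997) and Mmp9 (-0.37) then did not pass either, Mmp3 at an edgeR adjusted p of 0.0677. A strain difference was called for 0 of 9 members and 0.232% of all genes, with 1 member at an unadjusted p under 0.05 in edgeR and 0 called by DESeq2, but 1 called without the filter on low counts.

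Levels were also compared between the strains within a condition, as DBA/2J minus C57BL/6J. At 24 h in controls, 3 of 9 members were called, all higher in DBA/2J, where 22.2% of all genes were called and 13.9% were higher. Mmp9 was higher by 1.93 ± 0.34 (edgeR adjusted p = 0.00109), with 9.89, 17.6 and 8.73 CPM in DBA/2J against 2.14, 4.17 and 2.91 CPM in C57BL/6J controls. Mmp13 was higher by 0.95 ± 0.22 (edgeR adjusted p = 0.00707) and Mmp10 by 1.28 ± 0.34 (edgeR adjusted p = 0.0145). The strains did not overlap for these 3 genes, and 8.27% of all genes were lower. The Mmp10 difference lost its call without C57BL/6J or DBA/2J control 24 h replicate 1 (edgeR adjusted p of up to 0.0842). Without the filter on low counts 6 members were called.

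At 6 h in controls 0 of 9 members differed between the strains, where 26.2% of all genes were called, 13.6% higher in DBA/2J and 12.7% lower. Of the members, 1 reached an unadjusted p under 0.05 in edgeR, and DESeq2 called 0. Without the filter on low counts 4 were called, and 1 with scaling by library totals. Without DBA/2J control 6 h replicate 1, Mmp14 was lower in DBA/2J slices by 0.50 (-0.50 ± 0.13, edgeR adjusted p = 0.0142). Leaving that library out also raised the count at 24 h from 3 to 6, since both times share the fit. The added genes were Mmp2 (0.81 ± 0.25), Timp2 (-0.47 ± 0.13) and Mmp14 (-0.42 ± 0.11).

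Under normoxia 4 of 9 members differed, 1 higher and 3 lower in DBA/2J slices, where 46.8% of all genes were called, 28.3% higher and 18.5% lower. Timp3 was higher by 1.34 ± 0.15 (edgeR adjusted p = 8.30e-06), with no overlap. Mmp9 (-1.50 ± 0.32), Timp2 (-0.91 ± 0.10) and Mmp14 (-0.63 ± 0.13) were lower (edgeR adjusted p of 0.00165 or less). Timp2 measured 56.1, 67.1 and 57.1 CPM in C57BL/6J slices and 26.4, 30.6 and 34.1 CPM in DBA/2J slices, again without overlap. The fibroblast and pericyte sum was 177 ± 25.4 CPM in C57BL/6J slices and 81.5 ± 21.2 CPM in DBA/2J normoxia libraries. Also lower in DBA/2J were the sums for thick ascending limb and collecting duct (11485 ± 3021 and 2905 ± 966 CPM), endothelium (586 ± 103 and 348 ± 87.3) and macrophages (183 ± 11.2 and 138 ± 13.5). The proximal tubule sum was higher (5631 ± 1370 and 11624 ± 851 CPM). The part of these markers in the strain differences was not tested.

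Under normoxia-hyperoxia 1 of 9 members differed, where 25.7% of all genes were called (2 members with scaling by library totals). The member called was Mmp13, higher in DBA/2J slices by 1.10 ± 0.19 (edgeR adjusted p = 0.0011). The macrophage sum was also higher in these DBA/2J libraries, at 353 ± 47.3 against 206 ± 24.3 CPM, and its part was not tested.

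Tunicamycin and cyclosporin A were compared with the controls of the same time. None of the 9 tested members was called in any of the 4 drug comparisons, by edgeR or by DESeq2. At an unadjusted p under 0.05, edgeR gave 0 members for tunicamycin at 6 h and 1 each for tunicamycin at 24 h, cyclosporin A at 6 h and cyclosporin A at 24 h. All genes called were 0% for tunicamycin at 6 h, 1.38% at 24 h (0.97% higher and 0.408% lower), and 0% for cyclosporin A at either time. A strain difference in a drug response was called for 0 members and 0% of all genes in each of the 4. For these differences 1 member had an unadjusted p under 0.05 in edgeR, for tunicamycin at 24 h, and DESeq2 called 0 members.

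The values show how wide the spread was. With tunicamycin at 24 h, Timp1 measured 20.4, 11.3 and 26.2 CPM in C57BL/6J slices and 41.98, 15.1 and 11.95 CPM in DBA/2J slices, spanning the control range. Its log2 fold change was 0.35 ± 0.33 with all libraries and -0.02 ± 0.21 without DBA/2J tunicamycin 24 h replicate 1. Mmp14 in the same libraries measured 70.2, 48.6 and 69.6 CPM and 133, 41.4 and 52.1 CPM, for a log2 fold change of 0.46 ± 0.26, and 0.13 ± 0.11 without that library.

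With cyclosporin A at 24 h, Mmp9 measured 5.96, 4.39 and 1.65 CPM in C57BL/6J slices and 9.52, 9.23 and 46.1 CPM in DBA/2J slices. The 46.1 CPM is the library with high fibroblast and pericyte markers. With it the log2 fold change of Mmp9 was 0.57 ± 0.50 and without it -0.02 ± 0.32. Mmp2 and Mmp14 turned from 0.22 ± 0.23 and 0.26 ± 0.21 to -0.04 ± 0.17 and -0.01 ± 0.10 in the same way, and Timp1 went from 0.61 to 0.25. At 6 h with cyclosporin A, the largest member difference was that of Mmp9 (-0.84 ± 0.39), and the smallest edgeR adjusted p was 0.892, for Mmp14 (-0.51 ± 0.19). Without DBA/2J control 6 h replicate 1 these were -0.72 for Mmp9 and -0.28 for Mmp14. Without the library concerned, no member was called in any of the 4 drug comparisons.

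Mmp7, matrilysin, is a small MMP without a hemopexin domain that is known from injured tubules and fibrotic kidney. It had a median of 2.5 counts per library and 0 counts in 10 of 48. The 3 libraries with high fibroblast and pericyte markers held 157, 62 and 65 Mmp7 counts (7.17, 2.83 and 3.43 CPM), which is 66.4% of all Mmp7 counts. The next highest library had 21. In DBA/2J normoxia libraries Mmp7 had 0 counts throughout, and in DBA/2J normoxia-hyperoxia libraries 0.345, 0.356 and 0.552 CPM, at least 3.09-fold higher. C57BL/6J controls held 1, 3 and 0 Mmp7 counts at 6 h and 12, 5 and 3 at 24 h. DBA/2J controls held 62, 2 and 1 at 6 h and 0, 5 and 3 at 24 h, so the times did not separate in that strain. Since Mmp7 did not pass the filter on low counts, it was tested only in the fits without that filter and in DESeq2. Counts of members called in those fits could include it.

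**Figure D4:**
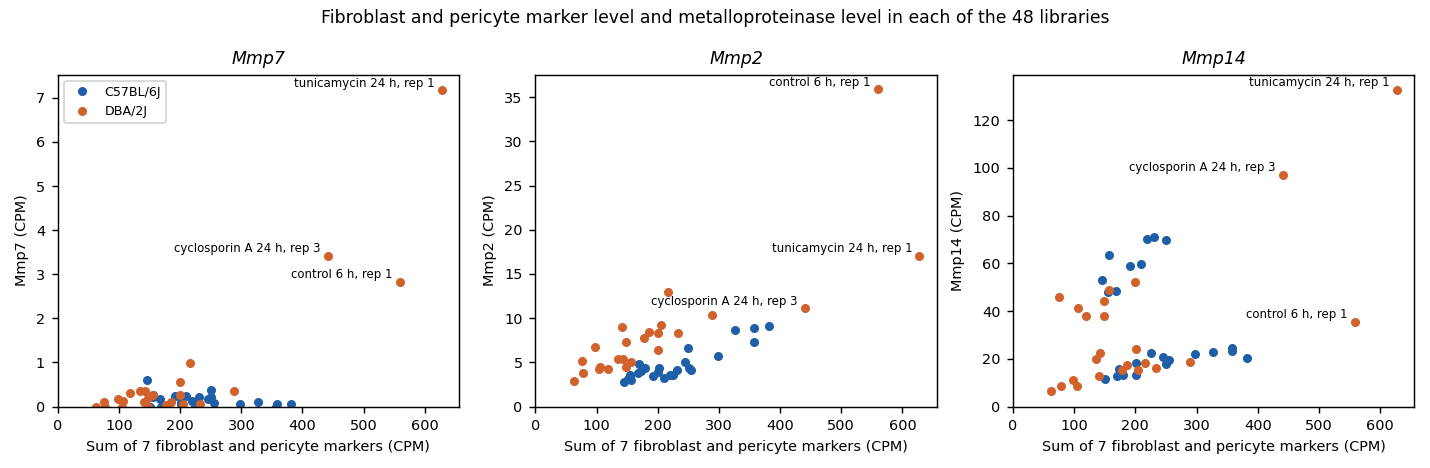
CPM of Mmp7, Mmp2 and Mmp14 (vertical axes) against the summed CPM of 7 fibroblast and pericyte markers (horizontal axes) in each of 48 libraries, with C57BL/6J in blue and DBA/2J in orange. The 3 named DBA/2J libraries, at 628, 559 and 441 CPM of markers, hold the highest Mmp7 levels at 7.17, 2.83 and 3.43 CPM.

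Other genes of the pathway were read from lists of further MMPs and surface regulators, the plasminogen system, ADAM and ADAMTS proteases, and inducers of MMP genes. From 6 h to 24 h in controls, 3 of the 11 tested genes of the first list rose and 4 fell, with a median log2 fold change of -0.26, against 34.7% of all genes higher and 37.4% lower. Without DBA/2J control 6 h replicate 1 the counts were 5 and 4 of 12, and the genes named next kept their calls. Mmp15, a membrane-type MMP, fell by 1.71 on the log2 scale (SE 0.12). Mmp8, the neutrophil collagenase, rose (edgeR adjusted p = 6.90e-05) from 0, 0 and 3 counts to 20, 13 and 21 in C57BL/6J slices. Reck, a membrane-anchored MMP inhibitor, fell by 1.08 (SE 0.15) and Mmp12, the macrophage elastase, rose by 0.74 ± 0.20 (edgeR adjusted p = 1.20e-05 and 0.00467). Timp4 did not pass the filter in any comparison and reached at most 0.643 CPM.

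Plasminogen activation supplies plasmin, which activates pro-MMPs. Over the same interval, where 34.7% of all genes were higher and 37.4% lower, 4 of 10 genes of that list rose and 5 fell. Plau, the urokinase, rose from 340 ± 55.2 to 1010 ± 107 CPM in C57BL/6J slices (1.22 ± 0.11 over both strains). Serpinb2, an inhibitor of urokinase, rose by 3.80 ± 0.34, and Klkb1, plasma prekallikrein, fell by 3.24 (SE 0.20). Of 12 ADAM and ADAMTS genes 3 rose and 5 fell, led by Adam8 (3.89 ± 0.13) and Adamts15 (-1.49 ± 0.21). Of 12 inducers 5 rose and 5 fell, led by Fos (-2.12 ± 0.09) and Osm (-1.70 ± 0.26). Fosl1 was among those that rose, from 98.9 ± 47.2 to 313 ± 10.6 CPM in C57BL/6J slices and from 92.0 ± 8.53 to 381 ± 59.9 CPM in DBA/2J slices (1.64 ± 0.19). Il6 rose as well (1.14 ± 0.17). C57BL/6J slices had 26.4 ± 8.91 CPM of Il6 at 6 h and 59.999 ± 8.61 CPM at 24 h, and DBA/2J slices 50.9 ± 6.22 and 146 ± 38.99 CPM. Both are described again under normoxia.

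Under normoxia against 24 h controls, all 12 tested inducers were lower, against 39.7% of all genes, with a median log2 fold change of -3.08 against 0.05 over all genes. Fosl1, an AP-1 subunit, went from 313 ± 10.6 to 0.0505 ± 0.0510 CPM in C57BL/6J slices and from 381 ± 59.9 to 0.101 ± 0.0603 CPM in DBA/2J slices. Il6, an inflammatory cytokine, went from 59.999 ± 8.61 CPM to 2 counts over 3 libraries in C57BL/6J slices, and from 146 ± 38.99 CPM to 0 counts in DBA/2J slices. The plasminogen list had 4 of 10 genes higher and 5 lower. Plau fell by 0.97 on the log2 scale (SE 0.15), and Serpinf2, the inhibitor of plasmin, rose by 4.09 ± 0.19, from 14.5 ± 3.32 to 269 ± 53.1 CPM in C57BL/6J slices. Reck rose by 0.57 ± 0.17 on the log2 scale. The first list had 2 of 11 genes higher and 6 lower, Mmp12 among the latter (-1.84 ± 0.14) as were Mmp25 (-2.51 ± 0.23) and Mmp8, where 42.4% of all genes were higher and 39.7% lower. The ADAM and ADAMTS list had 3 of 12 higher and 8 lower, led by Adam8 (-6.79 ± 0.10) and Adamts4 (-6.17 ± 0.19), an aggrecan-cutting protease.

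From normoxia to normoxia-hyperoxia all 13 tested inducers were higher, against 37% of all genes, with a median log2 fold change of 5.12 against 0.02 over all genes. Set against the 24 h controls, 7 of 13 inducers were higher under normoxia-hyperoxia and 3 lower (median 1.08), where 34.1% of all genes were called in each direction. Fos (3.68 ± 0.08) and Il1b (2.39 ± 0.14) were the furthest up, while Fosl1 (-0.75 ± 0.10) and Il6 (-1.56 ± 0.21) were among the 3 lower. The part of these inducers in the member changes was not tested. Against the 6 h controls 11 of 13 inducers were higher and none lower, where 22.4% of all genes were higher. Fosl1 reached 164 ± 26.8 and 203 ± 34.97 CPM in the respective strains, and Il6 reached 26.5 ± 7.02 and 30.01 ± 11.8 CPM. Mmp12 rose with its cluster neighbour Mmp13, by 2.83 ± 0.10, to 30.6 ± 3.92 CPM in C57BL/6J slices and 64.8 ± 9.58 CPM in DBA/2J slices. Mmp19 rose by 4.51 ± 0.30 and Mmp25, a membrane-anchored MMP, by 3.09 ± 0.20. Plau and Reck did not pass, at 0.29 ± 0.15 and 0.08 ± 0.15 (edgeR adjusted p = 0.107 and 0.627). Of 11 genes of the first list 5 were higher and 1 lower, of 10 plasminogen genes 4 and 2, and of 12 ADAM and ADAMTS genes 7 and 3, where 37% of all genes were higher and 36.5% lower.

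Genes whose promoter window held TGANTCA, as the first windows of Mmp13, Mmp3, Mmp10 and Mmp7 do, were counted over the whole table. From normoxia to normoxia-hyperoxia 394 of 827 were higher (47.6%, against 37% of all genes) and 258 lower (31.2%, against 36.5%), with a median log2 fold change of 0.23 against 0.02 over all genes. Among genes with any matched promoter, 37.7% were higher and 38.2% lower. For normoxia against 24 h controls 324 of 837 were higher (38.7%, against 42.4% of all genes) and 396 lower (47.3%, against 39.7%), with a median of -0.16 against 0.05. The shares among genes with any matched promoter were 43.6% higher and 40.1% lower. For 24 h against 6 h 302 of 823 were higher (36.7%, against 34.7% of all genes) and 320 lower (38.9%, against 37.4%). The median was -0.00 against -0.02, and genes with any matched promoter were 35.9% higher and 38.9% lower. These counts are descriptions and were not tested.

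With tunicamycin at 24 h, where no member was called, 1 of 12 genes passed in the first list, 2 of 9 in the plasminogen list, and 0 of 12 among both the proteases and the inducers, against 0.97% of all genes higher and 0.408% lower. Mmp19 rose by 1.17 ± 0.24 (edgeR adjusted p = 0.0302). Plau fell by 0.52 on the log2 scale (SE 0.11, edgeR adjusted p = 0.034) and Plat, the tissue plasminogen activator, by 0.44 (SE 0.10, edgeR adjusted p = 0.0469). Without DBA/2J tunicamycin 24 h replicate 1, Plat passed (-0.54, edgeR adjusted p = 0.00895), while Mmp19 (1.04, edgeR adjusted p = 0.0681) and Plau (-0.46, edgeR adjusted p = 0.0676) did not. No gene of the 4 lists passed in the other 3 drug comparisons.

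Likeness of pattern was described by Pearson's r over the 16 group means of log2 CPM, which share libraries and depth. Among members, Mmp3 was most like Timp1 (r = 0.98) and Mmp14 (r = 0.96), and Mmp10 was like Timp1 (r = 0.91). Timp3 ran opposite to Mmp3 (r = -0.85) and Timp1 (r = -0.82). Mmp13 was little like Mmp3 (r = 0.31) and close to Mmp12 (r = 0.94).

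Among 15576 genes, those most like each member were Serpine2 and Cd248 for Mmp2 (r = 0.93 for both) and Cdyl and Tnfrsf23 for Mmp3 (0.99 for both). They were Adh7 and Ereg for Mmp9 (0.97 and 0.95), Klrg2 and Ptpn11 for Mmp10 (0.98 for both), and Clec4e and Cd300a for Mmp13 (0.96 and 0.94). For Mmp14 they were Mmd and Cyp20a1 (0.98 for both), for Timp1 Rin1 and Eaf1 (0.99 for both), for Timp2 Adamtsl1 and Cped1 (0.98 and 0.97), and for Timp3 Ccser2 and Hapln1 (0.96 for both). The pattern of Mmp7, likened to Mt3 and Itsn1 (0.90 and 0.88), gave 0.78 for both genes without the 3 libraries named above.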

How the data were processed

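RNA-seq libraries were made with an Illumina stranded mRNA ligation kit after Qiagen midi extraction, per the labels' protocols. The authors deposited raw, whole-number counts per Ensembl gene. Per the submitters' processing notes, bcl2fastq 2.20.0, FastQC 0.11.8, STAR 2.7.9a, featureCounts 1.5.1 and the build GRCm38 were used. The strand setting, annotation release and read filters are not given in the sources used here. Symbols were matched for 55141 of 55487 IDs, and gene models were taken from GENCODE M21.

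Each of 10 comparisons was fitted on its own 12 libraries (4 groups of 3) with edgeR 4.0.16 (R 4.3.3, limma 3.58.1), using TMM factors, filterByExpr and robust quasi-likelihood F tests. Contrasts were the mean effect over both strains, each strain's effect, their difference (DBA/2J minus C57BL/6J) and strain differences within control and oxygen groups. P-values were adjusted by Benjamini-Hochberg over all genes tested, with a threshold of 0.05, and not across contrasts. Fold changes are log2, with SE derived from the F statistic. CPM used library totals without TMM, so ratios of CPM and fitted fold changes can differ. Groups with at most 3 counts in every library were treated as at the floor. The fitting was tested on simulated data.

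Members and lists were chosen with earlier results of these data known. Named genes were the 10 members, the 2 genes most like each member, the 2 called genes per list and comparison with the largest change, and Plau, Reck, Mmp12 and Timp4. Not all genes that the rule names are described, and 1 is not reported here. Alternatives were DESeq2's size factors within edgeR, no filter, DESeq2 1.42.0 (Wald test), a replicate block and each library left out in turn. Scaling by library totals, and levels, lists and likeness without the 3 libraries with high stromal markers, were added after the data were seen.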

Additional observations from a re-analysis of the deposited data

Results flagged for a closer look

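Differences between the strains' responses (DBA/2J minus C57BL/6J, log2) that passed the edgeR test of the difference itself were looked at again. For normoxia against 24 h controls these were Mmp9 (-3.42) and Timp3 (1.496). Mmp9 was lower under normoxia in 3 of 3 DBA/2J libraries and overlapped the controls in C57BL/6J slices, and Timp3 was higher in 6 of 6 libraries of both strains. For normoxia-hyperoxia against normoxia they were Mmp9 (2.02), Timp3 (-1.40), Timp2 (0.76) and Mmp14 (0.68). For normoxia against 6 h controls they were Mmp9 (-2.46), Timp3 (1.11) and Timp2 (-0.80). The comparisons share the normoxia libraries, so they are not independent of each other. Groups of 3 were too small to look for single libraries far from the rest by a formal rule.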

How the results depend on the processing

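Each count of called members kept within 1.5 times its value with DESeq2's size factors in edgeR, with DESeq2 and with the replicate block. Without the filter on low counts, strain differences in the response were called for 2 members (24 h against 6 h controls), 4 (normoxia against 24 h), 2 (normoxia-hyperoxia against 24 h), 5 (normoxia against 6 h) and 1 (normoxia-hyperoxia against 6 h), in place of 0, 2, 0, 3 and 0. Strain differences in controls were then called for 4 members at 6 h and 6 at 24 h, in place of 0 and 3. With library totals, 1 member differed between strains in 6 h controls and 2 under normoxia-hyperoxia. The fits without the filter also held Mmp7, and those for normoxia against 6 h also held Mmp10. The cause of these shifts was not tested. Leaving out 1 library gave 0 to 2 members for the strain difference in 6 h controls, 2 to 6 in 24 h controls, 2 to 4 for the strain difference in the response to normoxia against 24 h, 0 to 1 for normoxia-hyperoxia against 24 h and 1 to 3 for normoxia against 6 h. The libraries concerned were DBA/2J control 24 h replicate 1 (4), DBA/2J control 24 h replicate 2 (1) and DBA/2J normoxia replicate 2 (1), besides DBA/2J control 6 h replicate 1.

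No value called in the edgeR fits as reported turned its sign. Mmp3 with tunicamycin at 6 h was 0.038 with the replicate block (-0.08 without). Timp2 under normoxia against 24 h was -0.0253 with DESeq2's size factors, -0.0249 with DESeq2 and -0.27 with library totals (then called, edgeR adjusted p = 0.0176), where Mmp2 was -0.13. Timp3 under normoxia against 6 h was 0.0079 with DESeq2's size factors, 0.023 without the filter and 0.0076 with DESeq2. With 1 library left out, tunicamycin at 6 h gave -0.046 to 0.20 for Mmp13, -0.30 to 0.40 for Mmp3, -0.073 to 0.35 for Mmp10 and -0.16 to 0.026 for Timp2. Tunicamycin at 24 h gave -0.017 to 0.50 for Timp1, -0.32 to 0.17 for Mmp3 and -0.26 to 0.22 for Mmp10. Cyclosporin A at 6 h gave -0.12 to 0.14 for Mmp13 and -0.88 to 0.11 for Mmp3. Cyclosporin A at 24 h gave -0.024 to 0.76 for Mmp9, -0.043 to 0.34 for Mmp2, -0.0059 to 0.37 for Mmp14, -0.34 to 0.10 for Mmp10 and -0.19 to 0.022 for Timp2. Normoxia gave -0.058 to 0.058 for Timp2 against 24 h and -0.051 to 0.054 for Timp3 against 6 h. Normoxia-hyperoxia gave -0.33 to 0.014 for Mmp9 against normoxia, and -0.086 to 0.74 for Timp1 and -0.22 to 0.10 for Mmp14 against 6 h.

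Same-numbered libraries of a strain had mean residual correlations of 0.01 to 0.18 per comparison, with single pairs up to 0.37. In no comparison were all 6 pairs above 0.1, though 5 were for tunicamycin at 6 h and for normoxia against 6 h controls. The numbers were not taken as pairs, but the labels leave shared mice open. The replicate block left the 24 counts of called members within 1.5 times, but ended the strain difference of Timp2 for normoxia against 6 h (edgeR adjusted p = 0.0627) and called Mmp9 there in C57BL/6J slices (0.84, edgeR adjusted p = 0.0325, against 0.81 and 0.0666). Over all genes, tunicamycin at 24 h called 233 genes, 395 without the filter, 536 with DESeq2 and 78 to 344 with 1 library left out. Cyclosporin A called 0 genes at 6 h and at 24 h, but 45 and 19 with DESeq2 and 4 and 3 without the filter. Strain differences in the response moved from 117 to 817 without the filter, 329 with DESeq2 and 71 with the replicate block (24 h against 6 h), and from 247 to 1156, 685 and 618 (normoxia-hyperoxia against 24 h). For normoxia against 6 h they moved from 616 to 1536, 1167 and 1462, and for normoxia-hyperoxia against 6 h from 39 to 712 without the filter and 246 with DESeq2. Low counts limit Mmp7 throughout and Mmp3 and Mmp10 under normoxia, where Mmp10 had 0 counts and Mmp3 at most 6 in a library.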
